A study of Mus musculus with 16 samples.

Results

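NOD thymocytes were compared with B6g7 thymocytes at the DN4 stage in mice that carried the BDC2.5 T cell receptor transgene, with 2 arrays of BDC/NOD DN4 and 2 of BDC/B6g7 DN4 out of 16 arrays in the series. The arrays were chosen by their labels for strain, genotype and stage, and no measured value entered the choice. NOD is an inbred strain that develops autoimmune diabetes, and B6g7 is the C57BL/6 background with the MHC haplotype H2g7 of NOD. BDC2.5 is the receptor of a CD4 T cell clone that attacks pancreatic islets, and both groups carried it. All mice were 4 weeks old, and in each of the 2 groups replicate 1 was male and replicate 2 female. CD4 and CD8 bearing cells had been removed with complement before sorting for CD4-, CD8-, lineage-, CD44- and CD25- cells. The labels do not say how many mice made up an array or whether replicates were separate animals, and p-values therefore rest on the scatter of these arrays alone, which may be technical. The other 12 arrays were DN2-3 cells (lineage-, CD25+) of BDC/NOD and BDC/B6g7 mice and DN2-3 and DN4 cells of NOD and B6g7 mice without the transgene, all of these last from females. They entered the estimate of the spread and the tests of whether the strain difference changed with the transgene or the stage.

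Double-negative thymocytes normally rearrange the TCR beta locus with the RAG recombinase, and the new beta chain pairs with the pre-TCR alpha chain. The pre-TCR signal then stops rearrangement and starts a burst of division, in which DN4 cells grow, replicate their DNA and begin to transcribe the CD8 and CD4 genes. In TCR transgenic mice a complete alpha-beta receptor is present before this step, and double-negative cells that carry it can take up gene expression known from gamma-delta and mature T cells.

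The arrays compared were alike in median intensity, while the width of their distributions was somewhat smaller in B6g7. Median intensities on the 4 arrays ran from 123.1 to 126.9 in the linear units of the RMA values. Ratios of upper to lower quartile were 8.91 and 8.30 in BDC/B6g7 DN4 and 9.34 and 9.74 in BDC/NOD DN4. The replicates correlated with r of 0.991 and 0.993 across genes, which are not independent replicates. Among the other arrays replicate 1 of NOD DN2-3 had the lowest quartile ratio, 6.82. The NOD DN2-3 pair also had the lowest r of all pairs, 0.960, and the largest median difference between replicates, 0.25 log2. It enters the shared estimate of the spread. In DN4 cells without the transgene the ratios were 7.60 and 7.46 in B6g7 and 9.35 and 10.02 in NOD. Quantile normalization again, which makes the distributions alike, moved the share of calls that were higher in NOD from 62.8% to 52.8%. The genes called for a strain difference that changed with the transgene went from 2152 to 2453. What else this split between strains adds to the comparisons was not tested. Y-linked genes and Xist matched the labelled sex, and the highest Y-linked signal on a female array, 5.98 log2, is taken below as the background level. The gate was visible in its markers. Cd44 averaged 6.18 log2 in BDC/B6g7 DN4 and 6.39 in BDC/NOD DN4, against 7.67 and 7.73 in the DN2-3 cells of the same mice. Il2ra, which encodes CD25, averaged 9.66 and 9.10 against 12.54 and 12.36, so its signal was lower than at DN2-3 but well above the background level. Cd3e, a CD3 chain of every T lineage cell, read 12.80 to 12.91 on the 4 arrays.

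Of 93 matched markers of other cell types, 35 were at background on all 4 arrays. Of the 13 B cell markers matched, 5 were at background on all 4 arrays, Cd79a, Ms4a1 and Ebf1 among them. Of the 3 tested, Cd79b alone passed and was lower in NOD (-0.66 log2). The linear signal summed over the 13 markers was 1590 and 1672 in B6g7 and 1341 and 1262 in NOD. The myeloid and dendritic list summed to 2848 and 3063 in B6g7 and 3239 and 3290 in NOD, with 9 of 24 markers at background on all 4 arrays, Csf1r, Itgam and S100a8 among them. Of its 8 tested markers, Cd68 (0.47 log2) and Cst3 (0.36) were higher in NOD and Cd74 (-0.57) was lower. NK receptor genes such as Ncr1, Klrb1c and Klrd1 were at background, but the NK and NKT list summed to 8186 and 8465 against 5578 and 6105, a difference carried by Il2rb and Nkg7. The stromal list summed to 2616 and 2792 against 1933 and 1868, and there Pdgfrb alone passed the test (9.80 and 9.85 log2 in B6g7, 7.66 and 7.45 in NOD), while Krt5 and Dcn were at background and Foxn1 and Cdh5 read at most 6.42 log2. Mast cell genes summed to 7160 and 6499 against 5565 and 6023, nearly all of it Cpa3 and Kit, with Mcpt4, Ms4a2 and Fcer1a at background. The erythroid list held 603, 626, 636 and 621 on the 4 arrays. The part of other cells in the results was not tested, and in sorted bulk samples fewer cells of a type and less RNA per cell cannot be told apart.

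Of 10689 genes tested, 4387 (41%) differed between NOD and B6g7 with limma's test at an adjusted p below 0.05. In NOD 2756 (25.8%) were higher and 1631 (15.3%) lower, so that 62.8% of the calls were higher; with quantile normalization again the split was 2379 higher and 2129 lower (52.8%). The median of all genes was 0.05 log2. At 2-fold or more, 425 genes were higher and 260 lower, and at 4-fold or more 11 and 33. The 4 arrays of a called gene did not overlap between strains in any of the 4387, which held for 77.8% of all genes tested. Without overlap the sign must be the same in the male pair and the female pair, as it was for every called gene. Without the male arrays, which leaves a single array per BDC group, 1731 genes passed, 1176 higher and 555 lower.

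**Figure D1:**
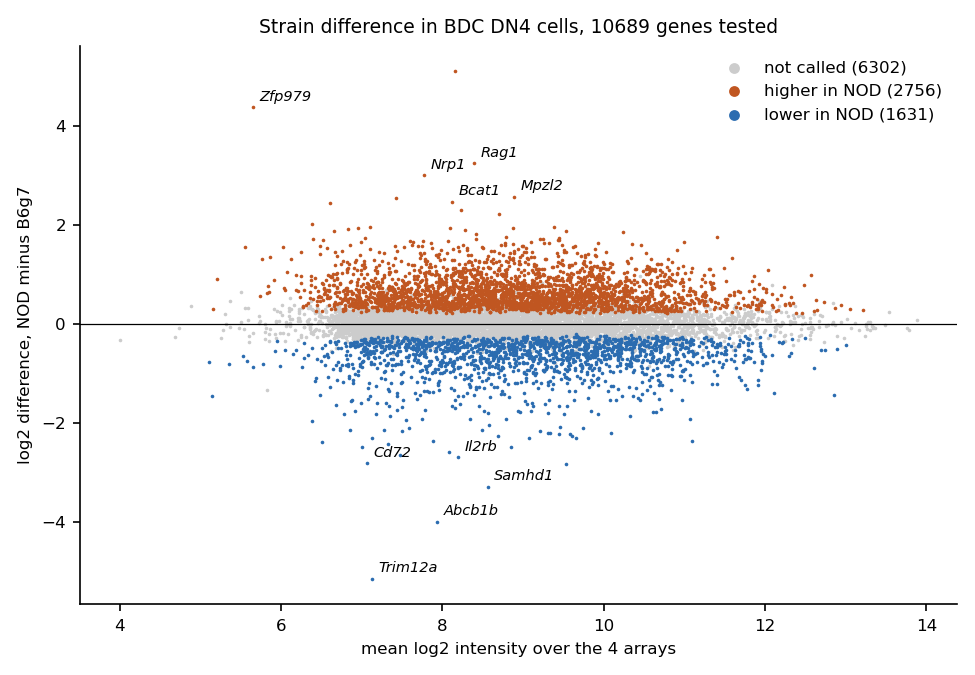
Difference between BDC/NOD DN4 and BDC/B6g7 DN4 (y axis, log2, NOD minus B6g7) against mean log2 intensity over the 4 arrays (x axis), with a point for each of 10689 genes tested. The 2756 genes that were higher in NOD are orange, the 1631 that were lower are blue, and 10 genes with large differences are named.

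The largest gains in NOD included recombination and adhesion genes. The zinc finger gene Zfp979 read 7.72 and 7.97 log2 in NOD and lay below background in B6g7, which makes it at least 1.87 higher (adjusted p = 9.6e-09). Rag1, a subunit of the recombinase, read 7.04 and 6.49 in B6g7 and 9.97 and 10.08 in NOD, a difference of 3.26 ± 0.24 (SE, adjusted p = 5.0e-07) or 9.60-fold. The semaphorin and VEGF receptor gene Nrp1 read 6.16 and 6.38 against 9.31 and 9.27 (3.02 ± 0.16). Arrays that did not overlap between strains were a condition for being named among the largest differences. For these genes the gap between strains was larger than the gap between replicates, which largely follows from how they were picked. Also among the 15 highest were Mpzl2, an adhesion molecule of the thymus (2.58 ± 0.15), Bcat1, a branched-chain amino acid transaminase (2.48 ± 0.11), Rgs6, a G protein regulator (at least 1.86), the calcium channel gene Ryr2 (1.97 ± 0.12), the MAP kinase pathway inhibitor Spry1 (1.96 ± 0.27), the mitotic kinase gene Pbk (1.94 ± 0.15) and the phosphatase gene Ptpn3 (1.90 ± 0.10). Some of these genes had large estimates in the other strain comparisons too. In DN4 cells without the transgene and in BDC DN2-3 cells they were 4.69 and 4.24 for Zfp979, and 2.46 and 1.45 for Ryr2. For Rag1 they were 0.88 and 1.37, and for Rgs6 -0.06 and 0.43. All of these are fitted values, which are neither exact sizes nor bounds where a group lies below background. Rgs6 lay below background in both strains in both comparisons (means of 5.28 and 5.22, and of 4.96 and 5.38, B6g7 first). Predicted and clone-named transcripts are left out of this ranking. The largest of them, BC018473, was higher by at least 4.73, with both B6g7 arrays below background, and was chosen after its value was seen.

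Among the largest losses were genes of retroviral restriction, drug efflux and nucleotide breakdown. Trim12a, a tripartite motif gene related to Trim5, read 9.70 and 9.72 in B6g7 and lay below background in NOD, at least 3.73 lower (adjusted p = 9.6e-11). Abcb1b, a drug efflux transporter, went from 9.95 and 9.91 to 5.86 and 6.01 (-3.99 ± 0.17). Samhd1, which degrades deoxynucleotides, read 9.92 and 10.49 in B6g7 and 6.78 and 7.05 in NOD (-3.29 ± 0.17, adjusted p = 2.9e-08). These 3 genes were picked for the size of their difference, and each was separated by several log2 units, far beyond the spread within a pair. Others among the 15 lowest were the coreceptor gene Cd72 (at least 2.5 lower), Il2rb, the shared beta chain of the IL-2 and IL-15 receptors (-2.70 ± 0.14), Rhoq (-2.59 ± 0.16), the prostaglandin synthase gene Ptgs2 (-2.49 ± 0.16), Sytl2, a vesicle transport gene (at least 2.27 lower), the prohormone convertase gene Pcsk1 (-2.42 ± 0.16), S100a11 (-2.37 ± 0.26) and the kinase gene Dapk1 (-2.36 ± 0.12). In DN4 cells without the transgene and in BDC DN2-3 cells the estimates were -2.75 and -3.21 for Trim12a and -1.94 and -2.91 for Abcb1b. They were -2.25 and -1.90 for Dapk1, 0.04 and -0.83 for Il2rb and -0.11 and -0.27 for Samhd1. For Trim12a, Abcb1b and Samhd1 some group means lay below background, so these are fitted values only. Of 483 other probe sets for the called genes (294 genes), 470 had the sign of the brightest probe set and 429 (88.8%) at least 0.5 of its log2 difference.

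Several genes of receptor rearrangement, and the pre-TCR alpha chain, were higher in NOD. Of 12 tested genes of V(D)J recombination and end joining, 7 were higher and none lower (25.8% and 15.3% over all genes), with a median of 0.47. Rag2, the partner of Rag1, read 6.43 and 6.24 in NOD and was below background in B6g7 (at least 0.36 higher, adjusted p = 7.6e-05). Dntt, the terminal transferase that adds bases at the joints, read 10.36 and 10.35 against 11.04 and 11.23 (0.78 ± 0.11, adjusted p = 7.0e-05). The end-joining genes Xrcc6 (0.89 ± 0.11) and Xrcc5 (0.57 ± 0.09) and the RAG cofactor Hmgb2 (0.79 ± 0.10) were higher as well. Ptcra, the pre-TCR alpha chain, read 6.80 and 6.62 in B6g7 and 8.15 and 8.20 in NOD, a difference of 1.47 ± 0.16 (adjusted p = 8.6e-06). Of the 5 genes of the pre-TCR and CD3 list 2 were higher and 1 lower (median 0.05), so the CD3 chains did not move together. Cd3g was higher by 0.48 ± 0.09, the zeta chain gene Cd247 was lower, at 10.23 and 10.05 in NOD against 11.18 and 11.16 (-1.03 ± 0.12), and neither Cd3e (0.05 ± 0.10) nor Cd3d (-0.25 ± 0.10) passed.

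The coreceptor genes were higher in NOD. Cd8a read 6.96 and 6.94 in B6g7 and 8.50 and 8.57 in NOD, a difference of 1.58 ± 0.18 (adjusted p = 1.2e-05) or 3.00-fold, and was 1.54 in males and 1.62 in females. Cd8b1 read 8.07 and 7.97 against 9.23 and 9.10 (1.14 ± 0.22) and Cd4 6.58 and 6.99 against 7.60 and 7.44 (0.74 ± 0.14). For all 3 genes both NOD arrays lay above both B6g7 arrays. Arrays did not overlap between strains for any called gene, nor for 77.8% of all genes tested. The list of double-positive stage genes nevertheless divided, with 9 of 25 higher, 8 lower and a median of 0.13. The shares were 36% and 32%, against 25.8% and 15.3% of all genes. Arpp21, a gene of cortical thymocytes, was higher (0.52 ± 0.11), while Slamf1, a receptor of the SLAM family, was lower (10.96 and 10.62 against 8.59 and 8.78), and so were Tox (-0.60 ± 0.10), a factor of CD4 lineage development, the signalling gene Tespa1 (-0.66 ± 0.13) and Rasgrp1, which activates Ras below the receptor (-0.53 ± 0.09). The counts of this list, of the key genes (12 of 25 higher, 6 lower) and of smaller differences fell without the male arrays, to 4 and 3 for the double-positive list and to 6 and 3 for the key genes, where Cd8b1, Cd4, Cd3g, Myc, Zbtb16, Il2ra, Il7r, Bcl2 and Egr1 no longer passed.

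**Figure D2:**
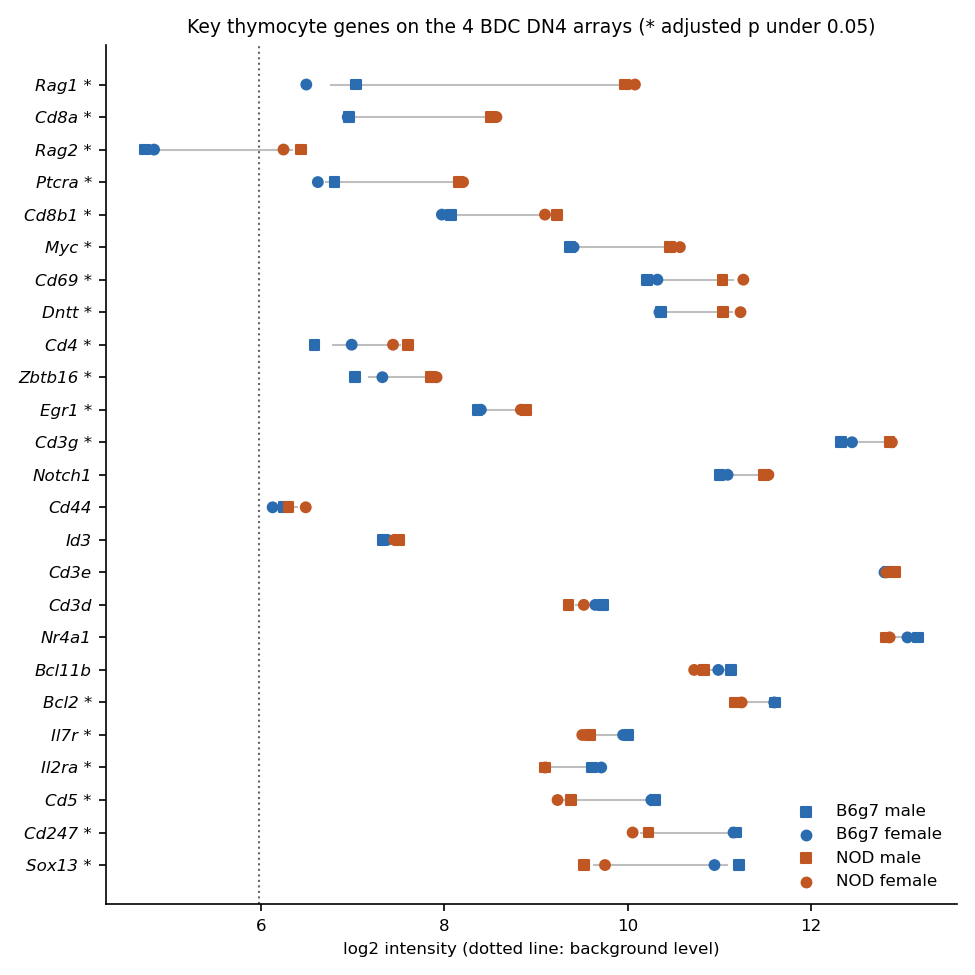
Log2 intensity (x axis) of 25 key thymocyte genes, ordered by difference, on the 4 arrays, B6g7 in blue and NOD in orange, males as squares and females as circles, with a grey line between the strain means and an asterisk where the adjusted p was below 0.05. Rag1, Cd8a, Rag2 and Ptcra lie to the right in NOD and Sox13, Cd247 and Cd5 to the left, while Cd3e overlaps at 12.80 to 12.91.

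Genes of cell division were higher in NOD, and DNA replication had the highest share of calls of the lists examined (96.2%, against 41% of all genes). Of 53 DNA replication genes matched, all tested, 51 were higher and none was lower, with a median of 1.11 against 0.05 over all genes, and 36 were higher by 2-fold or more. Of 71 mitosis and spindle genes 67 were higher and none lower (median 1.09), and of 35 genes of nucleotide and one-carbon synthesis 29 were higher and 1 lower (median 0.99). The G1 list followed in part, with 17 of 30 higher and 4 lower. The shares higher were 94.4% for mitosis, 82.9% for nucleotide synthesis and 56.7% for G1, against 25.8% of all genes. Without the male arrays the counts higher were 40 for replication, 58 for mitosis, 19 for nucleotide synthesis and 12 for G1.

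Ccne2, the cyclin E2 that starts S phase, read 8.02 and 7.77 in B6g7 and 9.81 and 9.89 in NOD (1.95 ± 0.17, adjusted p = 1.3e-06). Ccne1 differed by 1.47 ± 0.09, the ubiquitin ligase subunit gene Skp2 by 1.39 ± 0.14 and the E2F genes E2f8, E2f1, E2f2 and E2f7 by 1.59, 1.35, 1.31 and 1.14. The 4 genes lower in NOD were Ccnd2 (-1.18 ± 0.17), a D-type cyclin, the antiproliferative gene Btg1 (-0.72 ± 0.12), the pocket protein gene Rbl2 (-0.50 ± 0.10) and Cdkn1b, the inhibitor p27 (-0.42 ± 0.10). Among the replication genes, Rpa3 of the single-strand binding complex read 8.68 and 8.50 against 10.40 and 10.54 (1.89 ± 0.19), and the helicase subunit gene Gins1 6.71 and 6.80 against 8.37 and 8.50 (1.68 ± 0.10). Tyms, which makes thymidylate, read 8.69 and 8.48 against 10.28 and 10.30 (1.71 ± 0.09, adjusted p = 4.1e-08), and Rrm2, the regulated subunit of ribonucleotide reductase, 9.68 and 9.63 against 11.19 and 11.33 (1.60 ± 0.20). The gene of the nucleotide list that went the other way was Samhd1, whose product removes what Rrm2 and Tyms supply. Among the mitotic genes Ccna2, cyclin A2, read 10.13 and 10.19 against 11.87 and 11.78 (1.67 ± 0.09), and Cenpk (1.68 ± 0.11), Cdca5 (1.66 ± 0.17), Ncapg2 (1.61 ± 0.11) and Spc25 (1.51 ± 0.15), genes of the kinetochore, cohesion and condensation, followed.

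E2F factors bind sites near the start of many replication genes, so promoters were searched on both strands for the sites TTTGGCGC, TTTCCCGC, TTTCGCGC and TTTGCCGC in the RefSeq windows from 250 bases before to 50 bases after the start (GRCm38.p6). Of 44 tested replication genes with a listed promoter, 18 (40.9%) held a site, and of 24 G1 genes 7 (29.2%), against 4.99% of all tested genes and 2.6% of all promoters in the table. Among genes higher in NOD the share was 8.02%, among those lower 2.96% and among those not called 4.15%. Mitosis genes held a site in 8.62%. The 4 genes of the replication, G1 and nucleotide lists with a site and the largest differences are shown, with the site in capitals. They were picked for holding a site, so its presence in all 4 is not a result. The sites are in the orientation of the gene, where GCGGGAAA and GCGCCAAA are the reverse complements of TTTCCCGC and TTTGGCGC. Uhrf1 has 2 promoters listed, and the first with a site is shown. Uhrf1 (1.63 ± 0.17) maintains DNA methylation behind the fork, Cdc6 (1.59 ± 0.10) licenses origins, Gins3 (1.54 ± 0.13) is part of the helicase and Pola1 (1.43 ± 0.08) is the catalytic subunit of the primase polymerase. The windows are chr17:56304063-56304362 (+) for Uhrf1, chr11:98907901-98908200 (+) for Cdc6, chr8:95633309-95633608 (+) for Gins3 and chrX:93632106-93632405 (-) for Pola1, and the sites begin 185, 138, 41 and 138 bases before the start. A match is a description of these letters and not evidence of binding.
Uhrf1: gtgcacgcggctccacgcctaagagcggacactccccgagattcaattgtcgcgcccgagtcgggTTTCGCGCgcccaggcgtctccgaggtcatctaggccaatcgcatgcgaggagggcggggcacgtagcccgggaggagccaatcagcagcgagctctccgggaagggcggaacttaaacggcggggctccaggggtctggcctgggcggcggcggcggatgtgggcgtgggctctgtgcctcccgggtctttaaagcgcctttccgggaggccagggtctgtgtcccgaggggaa
Cdc6: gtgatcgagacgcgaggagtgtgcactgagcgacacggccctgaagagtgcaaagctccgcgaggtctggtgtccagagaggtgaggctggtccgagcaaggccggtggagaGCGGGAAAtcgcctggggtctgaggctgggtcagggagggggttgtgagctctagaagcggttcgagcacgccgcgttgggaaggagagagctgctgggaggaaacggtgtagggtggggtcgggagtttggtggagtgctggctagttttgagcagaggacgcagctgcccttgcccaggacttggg
Gins3: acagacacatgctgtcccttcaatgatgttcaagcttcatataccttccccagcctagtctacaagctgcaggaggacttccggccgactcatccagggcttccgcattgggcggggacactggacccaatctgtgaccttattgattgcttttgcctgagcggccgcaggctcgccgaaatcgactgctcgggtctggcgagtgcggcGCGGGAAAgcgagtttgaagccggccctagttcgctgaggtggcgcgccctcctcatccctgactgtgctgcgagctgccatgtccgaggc
Pola1: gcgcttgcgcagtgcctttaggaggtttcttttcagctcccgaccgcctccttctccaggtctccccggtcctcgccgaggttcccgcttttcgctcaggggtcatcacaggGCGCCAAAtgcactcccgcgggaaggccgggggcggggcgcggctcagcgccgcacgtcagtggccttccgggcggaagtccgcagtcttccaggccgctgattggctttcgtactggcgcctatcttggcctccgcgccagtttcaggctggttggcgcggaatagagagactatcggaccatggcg

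Most genes of Myc and ribosome biogenesis were higher in NOD, whereas few cytosolic ribosomal protein genes passed. Myc, the factor that drives cell growth, read 9.37 and 9.41 in B6g7 and 10.47 and 10.57 in NOD (1.13 ± 0.22, adjusted p = 0.001). Of 67 genes of Myc and ribosome biogenesis 58 were higher and 1, the Myc antagonist Mxd1 (-0.77 ± 0.19), was lower, with a median of 0.80. Dkc1, a subunit of the pseudouridine synthase of ribosomal RNA, read 9.21 and 9.23 against 10.58 and 10.61 (1.37 ± 0.15), and the nucleolar genes Gnl3 (1.32 ± 0.09), Nop58 (1.25 ± 0.10) and Nolc1 (1.05 ± 0.11) were similar. Cytosolic ribosomal protein genes differed much less, with 7 of 59 higher and a median of 0.14. That share, 11.9%, was below the 25.8% of all genes. Polyamine enzymes were mixed: Odc1, the first enzyme of synthesis, read 8.76 on both B6g7 arrays and 10.20 and 10.31 in NOD (adjusted p = 4.4e-07), and spermidine synthase, Srm, was higher by 1.51 ± 0.22, while spermine oxidase, Smox, was lower (-1.75 ± 0.11). Without the male arrays 38 of the 67 biogenesis genes were higher and Myc did not pass (1.16, a difference of the same size).

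The E-box CACGTG, the site of Myc and its partner Max, was counted in the same windows. Of 60 Myc and ribosome biogenesis genes with a promoter 14 (23.3%) held it, against 12% of all tested genes, 13.4% of those higher in NOD, 9.73% of those lower and 8.09% of all promoters. CACGTG reads the same on both strands and lies in none of the E2F sites. None of the polyamine genes with a promoter held it. The 2 members with an E-box and the largest differences are shown with it in capitals: Mybbp1a (chr11:72441077-72441376, +), a nucleolar Myb-binding protein gene with the E-box 41 bases after the start, and Utp18 (chr11:93885717-93886016, -), of the small subunit processome, with the E-box 20 bases before it.
Mybbp1a: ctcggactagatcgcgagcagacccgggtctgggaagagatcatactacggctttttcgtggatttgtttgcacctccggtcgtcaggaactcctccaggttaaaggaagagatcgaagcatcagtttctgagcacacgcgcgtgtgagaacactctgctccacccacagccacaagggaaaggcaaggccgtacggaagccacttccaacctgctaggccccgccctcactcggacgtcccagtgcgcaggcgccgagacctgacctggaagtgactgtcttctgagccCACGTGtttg
Utp18: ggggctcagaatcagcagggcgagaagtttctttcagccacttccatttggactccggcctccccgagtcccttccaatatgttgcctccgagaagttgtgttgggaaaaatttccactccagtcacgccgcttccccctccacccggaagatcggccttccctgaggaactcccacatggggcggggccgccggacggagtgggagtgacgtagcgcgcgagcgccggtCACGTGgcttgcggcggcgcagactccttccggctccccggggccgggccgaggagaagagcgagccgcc

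Mitochondrial and proteasome genes showed smaller differences in the same direction. Of 77 mitochondrial ribosomal protein genes 49 were higher and 1 lower (median 0.44), of 75 oxidative phosphorylation subunits 47 and 2 (median 0.42) and of 47 proteasome genes 32 and 1 (median 0.53). The shares higher were 63.6%, 62.7% and 68.1%, against 25.8% of all genes. Examples were Mrpl17 of the mitochondrial ribosome (8.10 and 7.91 against 9.13 and 9.17), the ATP synthase subunit Atp5g1 (10.88 and 10.82 against 11.90 and 11.80) and the proteasome lid subunit Psmd7 (9.62 and 9.45 against 10.46 and 10.43). Without the male arrays 19, 13 and 15 members of these lists were higher, with medians of 0.46, 0.40 and 0.53. Of 34 cholesterol and fatty acid genes, 18 were higher and 1 lower (9 and 0 without the male arrays), led by Idi1 of isoprenoid synthesis (1.72 ± 0.13), Acaca, the entry enzyme of fatty acid synthesis (1.28 ± 0.12), and Sqle (1.12 ± 0.13). Of 26 glycolysis and pentose phosphate genes, 9 were higher and 2 lower, a share of 42.3% called that is close to the 41% of all genes. The lactate transporter Slc16a1 read 9.41 and 9.20 against 11.15 and 11.20 (1.87 ± 0.12) and Pgk1 10.06 and 10.30 against 11.06 and 11.20 (0.95 ± 0.12). The glycolysis count was 5 without any one of the 4 arrays compared.

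**Figure D3:**
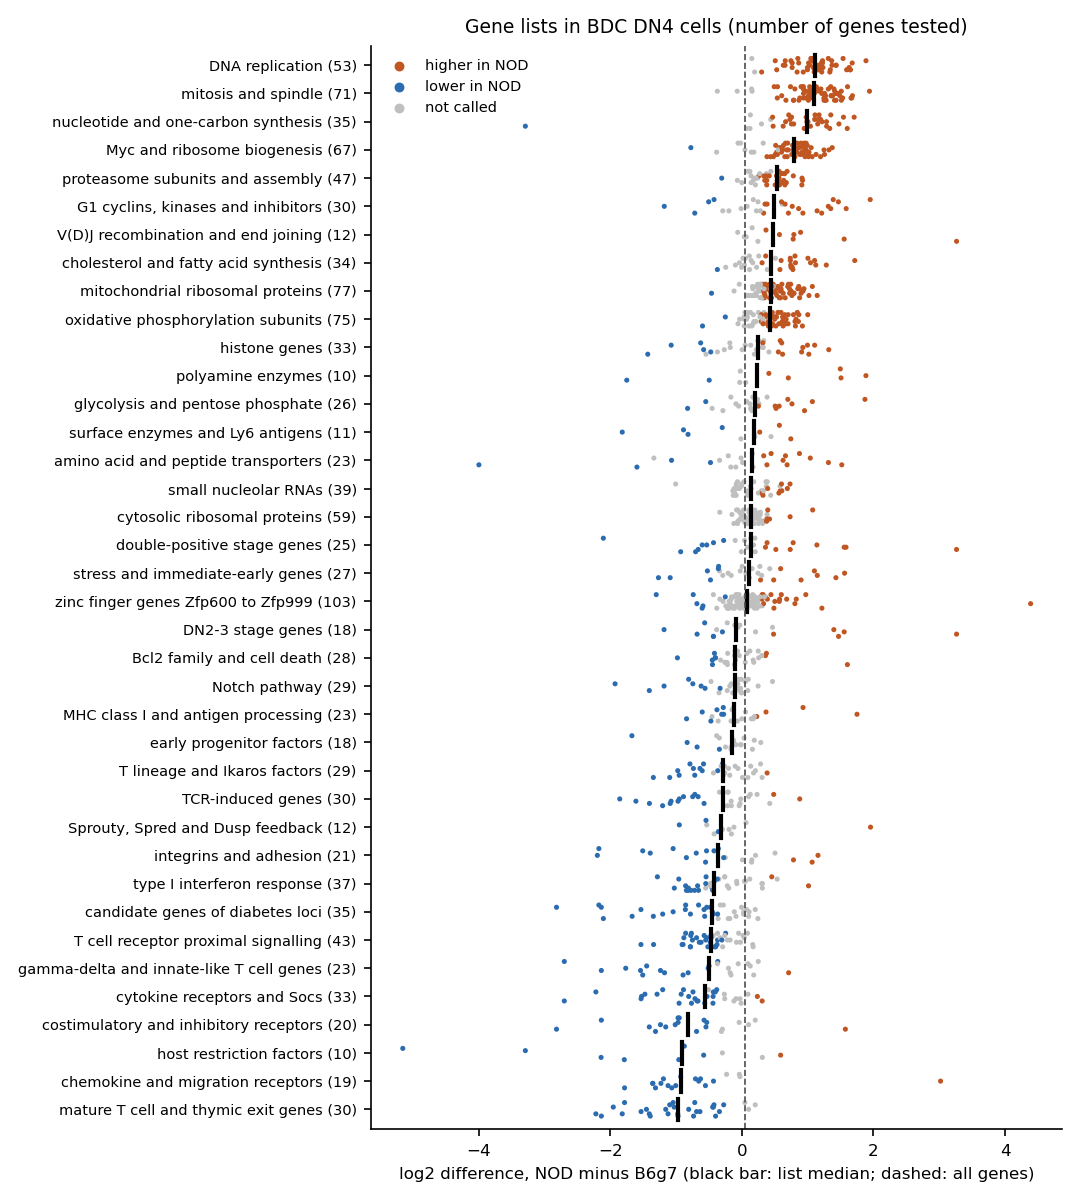
Log2 difference (x axis, NOD minus B6g7) of every tested member of the gene lists with at least 10 of them (number tested in brackets), orange where higher in NOD, blue where lower and grey where not called, with the list median as a black bar and the median of all genes (0.05) as a dashed line. DNA replication and mitosis lie at the top with medians of 1.11 and 1.09, and mature T cell and thymic exit genes at the bottom with -0.97.

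Many genes that act directly below the T cell receptor were lower in NOD. Of 43 tested members of the proximal signalling list 27 were lower and none was higher (15.3% lower over all genes), with a median of -0.47. Zap70, the kinase that binds phosphorylated zeta chains, read 10.74 and 10.72 in B6g7 and 9.96 and 9.93 in NOD (-0.78 ± 0.09, adjusted p = 2.3e-05). The Tec family kinase gene Txk fell from 11.57 and 11.45 to 10.15 and 10.18 (-1.34 ± 0.13), and Ptpn22, a phosphatase that restrains Src kinases, from 10.82 and 10.87 to 9.30 and 9.32 (-1.53 ± 0.13). These examples were picked among called genes, and in them the arrays of a strain lay much closer to each other than to those of the other strain. The Src family gene Blk (-0.89 ± 0.14), the adaptor gene Lax1 (-0.91 ± 0.09), Vav3 (-0.85 ± 0.09) and Prkcq, the protein kinase C of the synapse (-0.78 ± 0.08), were lower too. The count was 12 of 43 when the male arrays were left out, with a median of -0.41.

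Among genes induced by receptor signals more were lower than higher in NOD. Of 30 tested, 13 were lower, 2 were higher and 15 did not pass, with a median of -0.28. The shares were 43.3% lower, against 15.3% of all genes, and 6.67% higher, against 25.8%. Cd5, whose level follows signal strength in thymocytes, read 10.30 and 10.26 in B6g7 and 9.38 and 9.23 in NOD (-0.97 ± 0.10, adjusted p = 7.9e-06). Cd69, an early activation marker, went the other way, at 10.21 and 10.32 against 11.03 and 11.26 (0.88 ± 0.19, adjusted p = 0.002). Nr4a2 (-1.40 ± 0.15), Nr4a3 (-1.07 ± 0.15), Irf4 (-1.20 ± 0.19), Junb (-1.61 ± 0.20), Fos (-1.09 ± 0.13) and the inhibitory receptor gene Pdcd1 (-0.95 ± 0.10) were lower, while Nr4a1 did not pass (13.17 and 13.05 against 12.82 and 12.86, -0.27 ± 0.35). Egr1 was higher by 0.48 ± 0.16 and lost its call without any one of the 4 arrays (0.46 to 0.51) and after quantile normalization again (0.35). Spry1 was higher as given above, while its relative Spry2 was lower (-0.95 ± 0.11). With the female arrays alone 7 of the 30 were lower.

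Genes of mature T cells and of exit from the thymus were lower in NOD almost throughout. Of 30 tested, 27 (90%, against 15.3% of all genes) were lower and none was higher. The median was -0.97, and 14 were lower by 2-fold or more. S1pr1, the receptor that guides T cells out of the thymus, read 11.38 and 11.62 in B6g7 and 9.67 and 9.77 in NOD (-1.78 ± 0.12, adjusted p = 2.6e-07). Its regulator Klf2 (-0.97 ± 0.14) and Foxo1 (-1.10 ± 0.10), a factor of naive T cells, were lower as well. Il21r (-2.22 ± 0.13), Il4ra (-1.53 ± 0.11), Cd52 (-1.82 ± 0.23), Ms4a4b (-1.45 ± 0.19) and Tnfrsf1b (-1.41 ± 0.17) belong to the same list, and Dapl1 was lower by at least 1.39. Of the 8 Gimap genes, GTPases of lymphocyte survival that lie together on chromosome 6, 6 were lower, led by Gimap3 (7.98 and 8.19 against 6.29 and 6.25), and Gimap7 (-0.10 ± 0.12) and Gimap9 (0.16 ± 0.10) did not pass. The summed signal of the mature list was 48689 and 51509 in B6g7 and 32857 and 31840 in NOD. Without the male arrays 21 of the 30 were lower.

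Receptors for cytokines, chemokines and costimulation followed the same direction. The shares lower were 69.7%, 78.9% and 70% in that order, against 15.3% of all genes. Shares higher were 6.06%, 5.26% and 5%, against 25.8%. Of 33 cytokine receptor and Socs genes 23 were lower and 2 higher (median -0.56). Il12rb1, a subunit of the IL-12 and IL-23 receptors, read 9.94 and 9.77 in B6g7 and 8.94 and 8.86 in NOD, Tgfbr2 11.11 and 10.97 against 9.78 and 9.73 (-1.29 ± 0.14), and the signal inhibitors Socs2 and Socs3 were lower by 1.52 and 1.47 (SE 0.14 and 0.20) on the log2 scale. The IL-7 receptor gene Il7r was lower by a smaller amount (-0.43 ± 0.11) and did not pass without replicate 2 of BDC/NOD DN4 (-0.39, adjusted p = 0.0514). Of 19 chemokine and migration receptors 15 were lower and 1, Nrp1, was higher (median -0.93). Ccr4 read 12.41 and 12.45 against 11.13 and 11.11 (-1.31 ± 0.13) and Ccr7, which leads cells to the medulla, 10.16 and 10.63 against 9.27 and 9.29 (-1.12 ± 0.17). Of 20 costimulatory and inhibitory receptors 14 were lower and 1 higher (median -0.82), with Icos at 9.44 and 9.69 against 7.47 and 7.39 (-2.13 ± 0.14), Tigit (-1.31 ± 0.10) and Cd27 (-1.24 ± 0.11). The exception was Cd200, an inhibitory ligand, which was below background in B6g7 and at least 1.30 higher in NOD. Integrins were divided: Itgb3 (-2.19 ± 0.11), Itgae (-1.51 ± 0.17), Itgb7 (-1.39 ± 0.21) and Itgal (-1.04 ± 0.15) were lower, while Itga6 (1.16 ± 0.11) and Itgb1 (0.78 ± 0.09) were higher. Of the first 3 lists 14, 10 and 9 genes were lower without the male arrays.

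Genes known from gamma-delta and innate-like T cells were lower in 13 of 23 tested and higher in 1, with a median of -0.50. The shares were 56.5% lower, against 15.3% of all genes, and 4.35% higher, against 25.8%. Sox13, a factor of the gamma-delta lineage, read 11.22 and 10.95 in B6g7 and 9.52 and 9.75 in NOD (-1.45 ± 0.11, adjusted p = 7.2e-07). Rora (-1.76 ± 0.11), Maf (-1.17 ± 0.14) and the cytotoxic granule gene Nkg7 (-1.54 ± 0.12) were lower too. Zbtb16 (PLZF), which directs innate-like lymphocytes, went up instead, at 7.03 and 7.32 against 7.86 and 7.91 (0.71 ± 0.15, adjusted p = 0.0016). Of 36 entries 31 were matched, and 8 of those did not reach the filter on low signals. The summed signal was 51040 and 49511 in B6g7 and 30908 and 32286 in NOD, and many of these genes are shared with the mature T cell and receptor lists. From females alone, 10 were lower.

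Among transcription factors, 12 of 29 T lineage and Ikaros genes (41.4%, against 15.3% of all genes) were lower and 1 was higher (median -0.28). Bach2, a repressor that keeps lymphocytes quiescent, read 9.44 and 9.38 in B6g7 and 8.11 and 8.02 in NOD (-1.34 ± 0.17), and Runx3 (-0.95 ± 0.15) and Foxp1 (-0.72 ± 0.09) were lower as well. Bcl11b, which fixes the T lineage, did not pass (-0.28 ± 0.16), nor did the E protein genes Tcf3 (0.16 ± 0.21) and Tcf12 (-0.01 ± 0.08) or Id3 (0.13 ± 0.13). Among 29 Notch pathway genes 8 were lower and none higher, a share of 27.6% called against 41% of all genes. Hey1, a Notch target, read 9.34 and 9.28 against 7.42 and 7.35 (-1.93 ± 0.16), and Dtx1 (-1.18 ± 0.25), Lfng (-0.81 ± 0.13) and the coactivator Maml2 (-1.41 ± 0.16) were lower, while Notch1 itself read 11.00 and 11.09 against 11.49 and 11.54 without passing (0.47 ± 0.23). Of 18 early progenitor factors 4 were lower, among them Hlf (-1.67 ± 0.15) and Erg (-0.83 ± 0.10), and none was higher, 22.2% called against 41% of all genes.

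Among genes of defence against viruses more were lower than higher in NOD. Of 37 type I interferon response genes 17 (45.9%, against 15.3% of all genes) were lower, 2 were higher and the others did not pass (median -0.42). Usp18, which dampens interferon receptor signals, read 9.81 and 9.83 in B6g7 and 8.65 and 8.43 in NOD (-1.28 ± 0.18), and the RNA sensor gene Ddx58 (-0.85 ± 0.10) and Sp100 (-1.03 ± 0.11) were lower, against Ifit2, at 7.19 and 7.55 in B6g7 and 8.48 and 8.28 in NOD (1.01 ± 0.14). Of 10 host restriction factors 7 were lower and Fv1 alone was called higher (0.59 ± 0.18), and it did not pass without replicate 2 of BDC/B6g7 DN4 (0.405) or of BDC/NOD DN4 (0.40). Apobec3, a cytidine deaminase that edits retroviral DNA, read 11.54 on both B6g7 arrays and 9.79 and 9.72 in NOD (-1.79 ± 0.10), and Trim30d was lower by at least 1.95. Trim12a, Trim12c, Trim30a and Trim30d are members of close families, and their probe sets may share signal.

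The MHC region held a smaller share of differences than all genes. Of 88 tested genes between H2-K1 and H2-M3 15 were higher and 14 lower (33% against 41% of all genes). The 2 strains carry the same MHC haplotype, and whether that bears on the share was not tested. H2-T10, a nonclassical class I gene with close relatives, read 8.59 and 8.56 against 10.21 and 10.44 (1.75 ± 0.22). Over the autosomes the share called ran from 33.9% on chromosome 17, which carries the region, to 47.1% on chromosome 16. Chromosome 7 had 34.3%, so a share near 33% was not particular to the MHC region. Genes proposed for diabetes loci mostly gave a lower signal in NOD, with sequence differences between the strains at the probes not examined. Of 35 tested, 20 (57.1%, against 15.3% of all genes) were called lower and none was called higher (median -0.45). They included Cd93, at 10.26 and 10.33 in B6g7 and 8.20 and 8.04 in NOD (-2.17 ± 0.10), the nuclear receptor gene Pparg (-1.67 ± 0.14) and Stat4 (-1.20 ± 0.08), beside Cd72, Icos, Slamf1, Ptpn22 and Bach2 given above. Of 28 genes of the Bcl2 family and cell death 3 were higher and 6 lower (32.1% called against 41% of all genes), and the proapoptotic gene Bid was the largest, at 8.01 and 7.94 against 9.51 and 9.65 (1.60 ± 0.09). Bcl2 was lower by a small amount (-0.40 ± 0.11) and did not pass without replicate 1 of BDC/NOD DN4 (-0.36, adjusted p = 0.0697).

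The remaining lists were mixed. Over all genes 25.8% were higher and 15.3% lower. The shares were 36.4% and 15.2% for histones, 43.5% and 17.4% for transporters and 17.4% and 30.4% for class I genes. They were 27.3% and 36.4% for surface enzymes, 29.6% and 22.2% for stress genes and 27.8% and 33.3% for DN2-3 genes. Of 33 histone genes 12 were higher and 5 lower, with the linker histone gene H1f5 at 9.96 and 10.09 against 11.09 and 11.17, and H4c4 lower by 1.43 on the log2 scale; histone genes have near-identical copies and their probe sets may share signal. Of 23 transporters 10 were higher and 4 lower, among them the nucleoside transporter Slc29a1 (1.52 ± 0.17) and Abcb1a, the close relative of Abcb1b (-1.59 ± 0.10). Small nucleolar RNAs were higher in 9 of 39 and the zinc finger genes Zfp600 to Zfp999 in 17 of 103 with 6 lower, shares near or below those of all genes. The median of the zinc finger genes, 0.08, was -0.03 after quantile normalization again. Of 23 class I and antigen processing genes 4 were higher and 7 lower, and of 11 surface enzyme and Ly6 genes 3 and 4. Among 27 stress and immediate-early genes 8 were higher and 6 lower (median 0.11); the chaperone genes Hspd1 (1.43 ± 0.12) and Hspe1 (1.15 ± 0.12) were among the first and, among the last, Ppp1r15a, which restarts translation after stress (-1.27 ± 0.14). Of 18 genes of the DN2-3 stage 5 were higher, Spib among them (1.40 ± 0.20), and 6 lower. Without one of the BDC DN4 arrays the lists of class I genes (2 or 3 lower), histones (7 higher without replicate 1 of BDC/B6g7 or replicate 2 of BDC/NOD), transporters (6 higher without replicate 1 of BDC/NOD), cytosolic ribosomal proteins (3 or 4 higher without 3 of these arrays) and small nucleolar RNAs (3 or 4 higher without 3 of them) shrank by over 1.5 times. Without either NOD DN2-3 array 14 cytosolic ribosomal protein genes were higher.

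The strain difference was then compared with that in DN4 cells without the transgene. The test of the difference between the 2 strain effects called 2152 of 10689 genes (20.1%), 983 with a higher and 1169 with a lower value in BDC cells, with a median of -0.04. Cd8b1 changed direction. In cells without the transgene it was lower in NOD (11.08 in B6g7 and 9.44 in NOD, means of 2 arrays), in BDC cells it was higher (8.02 and 9.16), and the effects differed by 2.78 ± 0.31 (adjusted p = 8.6e-05). Cd8a did the same, with -0.57 and 1.58 (2.15 ± 0.25). Rag1 was higher in NOD in both, by 0.88 and 3.26, and the effects differed by 2.38 ± 0.34 (adjusted p = 4.4e-04). Ccne2 (0.01 and 1.95), Ccdc18 (-0.06 and 2.31) and the cohesin acetyltransferase gene Esco2 (-0.20 and 1.65) had estimates near 0 without the transgene and larger ones with it, and the interactions were 1.94, 2.37 and 1.85 in that order. Samhd1 passed the test too, but averaged 5.95 and 5.84 without the transgene, below the background level in both strains. The size of its interaction is therefore a fitted value only, listed with such values further below. Il2rb (0.04 and -2.70), Niban1 (0.08 and -2.20) and Cd7 (-0.14 and -2.30) were lower in NOD with the transgene and had estimates near 0 without it. By list, the interaction was called and positive for 37 of 53 DNA replication genes and 60 of 71 mitosis genes, with none negative, for 37 of 67 biogenesis genes with 2 negative, and it was called for 15 proximal signalling genes, all negative, and for 19 of 30 mature T cell genes, 1 of them positive. Without the male arrays 321 genes passed this test. The count was 3734 without either replicate of NOD DN2-3, 1305 without replicate 2 of NOD DN4, 1401 without replicate 1 of BDC/B6g7 DN4, and 1395 and 1335 without replicate 1 or 2 of BDC/NOD DN4.

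**Figure D4:**
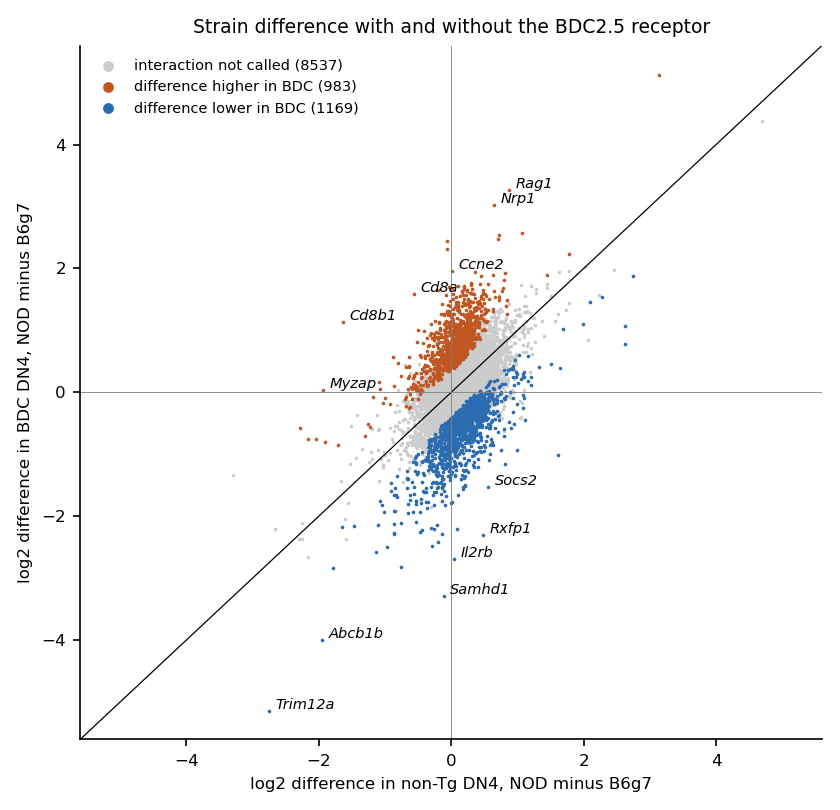
Strain difference in BDC DN4 cells (y axis, log2, NOD minus B6g7) against the strain difference in DN4 cells without the transgene (x axis), with a point per gene tested and a diagonal line where both are equal. The 983 genes with a called, higher difference in BDC cells are orange and the 1169 with a lower one blue; Cd8b1 lies at -1.64 and 1.14 and Il2rb at 0.04 and -2.70.

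The strain difference was also compared with that in the DN2-3 cells of BDC mice. Here 1684 genes (15.8%) passed, 1305 with a higher and 379 with a lower value at DN4. DNA replication genes were called in 47 of 53, mitosis genes in 61 of 71 and biogenesis genes in 45 of 67, all of them positive, since their median strain difference was 0.05, 0.07 and 0.07 at DN2-3 and 1.11, 1.09 and 0.80 at DN4. Rrm2 differed by -0.21 at DN2-3 and 1.60 at DN4 (1.81 ± 0.28, adjusted p = 8.2e-04), Fbxo5, an inhibitor of the mitotic ubiquitin ligase, by 0.03 and 1.75 (1.72 ± 0.18) and Fignl1 by 0.01 and 1.71 (1.70 ± 0.16). Rag1 (1.37 and 3.26) and Mpzl2 (0.76 and 2.58) were higher in NOD at both stages. Icos was higher in NOD at DN2-3 and lower at DN4 (0.67 and -2.13, a difference of -2.80 ± 0.20). S1pr1 differed by 0.04 and -1.78 and Itgb3 by -0.25 and -2.19. Adgrd1 and H2ac4 also passed this test, with BDC/NOD cells below the background level at both stages. The count was 12 without the male arrays, 2901 without either replicate of NOD DN2-3, 989 and 1052 without replicate 1 or 2 of BDC/NOD DN2-3, 1100 without replicate 2 of BDC/B6g7 DN4 and 901 without replicate 2 of BDC/NOD DN4.

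Set among all 8 groups of the series, it was BDC/B6g7 DN4 that lay at the end of the range. It had the lowest mean of the 8 groups for 3294 of 10689 genes (30.8%) and the highest for 2404 (22.5%), whereas BDC/NOD DN4 was lowest for 540 (5.05%) and highest for 578 (5.41%). For DNA replication genes BDC/B6g7 DN4 was lowest in 49 of 53, for mitosis genes in 65 of 71 and for biogenesis genes in 62 of 67. BDC/NOD DN4 was lowest in none of these genes. That was fixed in advance for 53, 69 and 63 of them, where it lay above BDC/B6g7 DN4 in the main comparison. The mean log2 signal of the replication list was 8.90 in BDC/B6g7 DN4, 9.99 in BDC/NOD DN4, 10.12 and 10.41 in B6g7 and NOD DN4 cells without the transgene, and 9.67 to 10.20 in the 4 DN2-3 groups. For the mature T cell list BDC/B6g7 DN4 was highest in 24 of 30. Its mean was 10.25 there, 9.30 in BDC/NOD DN4, 8.68 and 8.41 in the DN4 cells without the transgene and 8.66 to 9.21 at DN2-3. Tyms, Samhd1 and Rag1 are given as examples. They were picked for large strain differences between the 2 groups compared, so their positions add no support. Tyms read 8.69 and 8.48 in BDC/B6g7 DN4 and from 9.69 to 10.87 on the other 14 arrays, and Samhd1 read 9.92 and 10.49 there and from 5.79 to 7.05 on the others. Rag1 was at 7.04 and 6.49 there and at least 8.02 elsewhere. These positions are descriptions and were not tested.

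**Figure D5:**
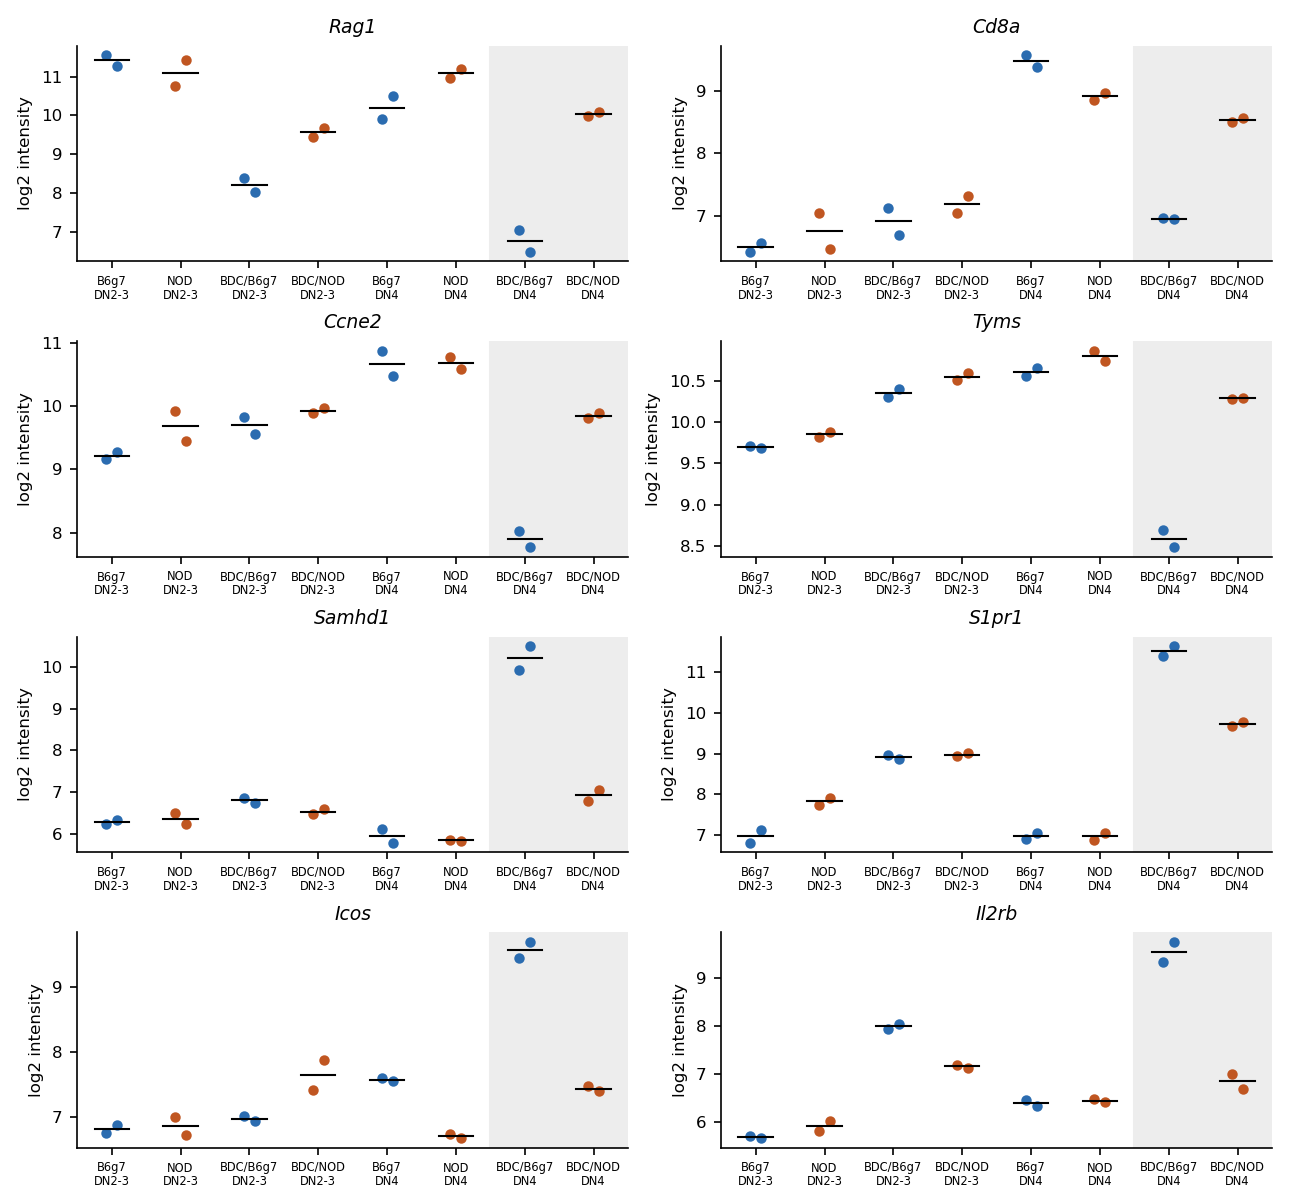
Log2 intensity (y axes) of 8 genes on all 16 arrays by group (x axis), B6g7 in blue and NOD in orange, with a bar at the mean of the 2 arrays and the 2 groups compared shaded. The 8 genes were picked among those called. BDC/B6g7 DN4 has the lowest Rag1, Ccne2 and Tyms and the highest Samhd1, S1pr1, Icos and Il2rb of the 8 groups. Cd8a there is as low as at DN2-3.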

How the data were processed

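Affymetrix arrays of sorted thymocytes were analysed, 2 per group in 8 groups. The authors deposited linear intensities per probe set, made with Affymetrix Power Tools and RMA per the submitters' processing notes; versions are not given in the sources used here. Intensities were taken to log2 with no pseudocount. Whether the strains differ in sequence at the probes was not examined, so a strain difference here is one of signal and need not be one of RNA. RMA evens out whole distributions, so a change shared by most genes may not be visible. In the deposited values the ratios of upper to lower quartile still ran from 6.82 to 10.30 over the 16 arrays. Of 25108 probe sets 21157 had 1 gene symbol in GEO's platform annotation, 1341 several and 2610 none, and 1 probe set, the brightest over all arrays, stood for each of 19531 genes. Genes whose highest group mean reached 7.05 log2 (10689) were tested with limma 3.58.1 in R 4.3.3, with a mean per group over all 16 arrays, moderated variances (8 residual and 5.06 prior degrees of freedom) and Benjamini-Hochberg adjustment at 0.05, two-sided. Errors printed after ± are standard errors of a difference of means with 2 arrays each. The strain difference with and without the transgene, and at DN4 and DN2-3, was compared by contrasts in the same fit, which was tested on simulated data.

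A gene below 5.98 log2 on both arrays of a group was given as a bound, at least the other group's mean minus that level. Named genes were the 15 highest and 15 lowest called genes with arrays that did not overlap (predicted names left out), up to 8 called members per direction of each list, every tested member of lists of up to 12 entries, the key genes, and the 10 highest and 10 lowest of each interaction. Members and lists were chosen with earlier results of these data known, and the histone list was widened to current symbols after the table was seen. Of 1709 list entries 1607 matched a gene. Promoters came from RefSeq (GRCm38.p6). Alternatives covered the filter, probe sets, normalization, blocks, sex, array weights, the arrays fitted and each array left out. The correlation, across genes, of the male minus female differences of the 2 strains was 0.31, and 2 pairs do not establish pairing.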

Additional observations from a re-analysis of the deposited data

Results flagged for a closer look

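The strain difference in BDC DN4 cells differed from that in DN4 cells without the transgene in 2152 genes, by limma's test of the difference itself. Among the named genes, the strain difference (NOD minus B6g7, log2) was greater in BDC cells for Cd8b1 (2.78), Rgs6 (2.51), Rag1 (2.38), Nrp1 (2.37), Ccdc18 (2.37), Cd8a (2.15), Myzap (1.97), Ccne2 (1.94), Esco2 (1.85), Bcat1 (1.77), Rag2 (1.10), Dntt (0.74), Zbtb16 (0.73) and Myc (1.31). It was smaller or more negative there for Samhd1 (-3.18), Rxfp1 (-2.79), Il2rb (-2.74), Trim12a (-2.40), Niban1 (-2.28), Pcsk1 (-2.22), Sytl2 (-2.20), Cd7 (-2.16), Socs2 (-2.08), Abcb1b (-2.05), Cd3d (-0.67), Cd247 (-1.09), Cd5 (-0.53), Id3 (-0.68) and Sox13 (-0.85). For Rgs6, Samhd1, Rxfp1, Trim12a, Pcsk1, Sytl2, Socs2, Abcb1b and Rag2 (9 genes) at least 1 of the 4 groups had a mean below the background level of 5.98 log2, so these are fitted values that depend on signal without a measured level, neither exact sizes nor bounds. Myzap did not pass the test in BDC DN4 cells (0.04 there, -1.93 without the transgene). All BDC groups held a male and a female array, while the cells without the transgene came from females, and sex and transgene cannot be told apart for the male arrays.

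Between DN4 and DN2-3 cells of BDC mice the strain difference changed in 1684 genes. It was greater at DN4 for H2ac4 (2.08), Rgs6 (2.02), Rag1 (1.90), Mpzl2 (1.82), Adgrd1 (1.82), Rrm2 (1.81), Ccdc18 (1.78), Fbxo5 (1.72), Ccne2 (1.72), Fignl1 (1.70), Dntt (0.59), Cd8a (1.31), Cd8b1 (1.02) and Myc (1.12). It was smaller or more negative at DN4 for Samhd1 (-3.02), Icos (-2.80), Pcsk1 (-2.66), Gimap3 (-2.08), Hlf (-1.97), Itgb3 (-1.94), Trim12a (-1.94), Il2rb (-1.86), Cxcr6 (-1.85), S1pr1 (-1.82), Cd247 (-0.80) and Il7r (-0.78). H2ac4, Rgs6, Adgrd1, Pcsk1, Gimap3, Trim12a and Cxcr6 (7 genes) had a group mean below the background level here, and their values are fitted ones only.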

How the results depend on the processing

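The strain difference in BDC DN4 cells gave between 1.5 times fewer and 1.5 times more calls than the 4387 reported under every alternative run except a pair: without the male arrays it gave 1731 (1176 higher, 555 lower), and with a 2-fold minimum by limma's treat 133 (62 higher, 71 lower). Leaving out each array in turn gave 3104 to 5511 calls (1942 to 3416 higher, 1148 to 2095 lower). The comparisons of strain differences moved more. That with and without the transgene (2152) gave 3436 with array weights, 3305 with only the DN4 arrays or only the arrays compared, 321 without the male arrays, 18 with the 2-fold minimum and 1305 to 3734 with each array left out. That between stages (1684) gave 2608 with a random block, 3245 with array weights, 3197 with only the BDC arrays or only the arrays compared, 12 without the male arrays, 6 with the 2-fold minimum and 901 to 2901 with each array left out. The cause was not tested, beyond the fewer arrays or the higher bar that some alternatives set by construction. With the replicate number, which is also the sex in BDC groups, as a replicate block, 4427 genes were called, 2792 higher and 1635 lower, and among the named genes Ccr9, Tgfbr1 and Canx lost their calls. Among named genes 1 estimate reversed: Hspa8 was 0.28 in the brightest probe set and -0.21 (adjusted p = 0.101 with limma) in the mean of its probe sets, and the cause was not tested. With 2 arrays per group, precision is limited by their number.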
